A study of Mus musculus with 1152 samples.

Results

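Levels of ferritin and iron handling genes were described in lymphatic endothelial cells, or LECs, from the nasopharyngeal lymphatic plexus of aged mice. The 6 genes were taken by name from the 23168 genes of the deposited table: the ferritin subunits Fth1 and Ftl1, the transferrin receptor Tfrc, the iron exporter Slc40a1 (ferroportin), the haem-degrading enzyme Hmox1, and Ncoa4, the receptor that carries ferritin to the lysosome. They were picked with the levels in these cells already known, so their levels below are a description and were not tested. The cells came from C57BL/6 mice, labelled only as aged, and were sorted as CD31+ PDPN+ cells from tissue pooled over many animals of both sexes. Libraries were made with Smart-Seq3, which reads whole transcripts of single cells sorted into plates. All labelled cells formed 1 group; 56.9% of them were analysed here, and their number is given with the processing and in the titles of the plots. Within this series there was no second group to compare with, no label tied a cell to an animal, and differences between cells of the pool therefore carry no p-value.

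Iron enters most cells bound to transferrin through the transferrin receptor and is stored in ferritin, a hollow shell built from heavy subunits, which oxidise iron, and light subunits, which help it to mineralise. Ferritin is broken down in lysosomes after Ncoa4 binds the heavy subunit, haem oxygenase 1 frees iron from haem, and ferroportin is the only known exporter of free iron from vertebrate cells. Iron regulatory proteins control several of these messages by binding hairpins, the iron-responsive elements, when iron is scarce: in a 5' UTR the hairpin blocks translation, and in the 3' UTR of the transferrin receptor it protects the message from decay.

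The hairpins are shown because 4 of the 6 genes held a match to the pattern described next. A search of GENCODE M21 transcripts (GRCm38, the build also called mm10, transcript strand only) looked for a C, then 5 bases, the loop CAGTGN, and 5 bases that pair with the first 5 by Watson-Crick or G-T pairs. It found 1 site in the 5' UTR of each ferritin gene and of Slc40a1, and 4 sites in the 3' UTR of Tfrc. Each is printed 5' to 3' over 29 bases, with the 6 bases of the loop in capitals.
Fth1, 5' UTR, chr19:9982732-9982760, plus strand: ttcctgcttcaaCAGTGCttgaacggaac
Ftl1, 5' UTR, chr7:45459779-45459807, minus strand: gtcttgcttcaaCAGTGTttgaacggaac
Slc40a1, 5' UTR, chr1:45925465-45925493, minus strand: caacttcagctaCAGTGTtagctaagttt
Tfrc, 3' UTR, chr16:32631219-32631247, plus strand: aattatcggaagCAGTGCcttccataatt
Tfrc, 3' UTR, chr16:32631598-32631626, plus strand: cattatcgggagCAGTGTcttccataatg
Tfrc, 3' UTR, chr16:32631663-32631691, plus strand: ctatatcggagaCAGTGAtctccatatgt
Tfrc, 3' UTR, chr16:32631710-32631738, plus strand: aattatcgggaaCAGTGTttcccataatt

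The ferritin hairpins share the same stem bases around the loop, whereas Slc40a1 has another stem and the Tfrc copies differ among themselves. Hmox1 and Ncoa4 had no match, which says only that these letters were not found in their transcripts. For comparison, the pattern occurred in a 5' UTR of 26 of 14788 protein-coding genes in the table (0.176%) and in a 3' UTR of 0.710% of them. Among 77 searched genes of wider iron and haem lists, 6 held a match, the others being the erythroid haem synthesis gene Alas2 and the iron-sulfur cluster gene Bola3. A match is a description of the sequence and was not a measurement of regulation in these cells. Hairpins that depart from this pattern would not be found, so a gene without a match may still hold one.

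All 8 LEC markers listed were read in most cells (median share 96.95%). Depth ran from 7046 to 10727631 reads a cell with a median of 148202. Of 3 epithelial genes in the table, Epcam and the keratin gene Krt18 were at 0 reads in every cell, and Krt8 was read in 0.61%. At least 1 read of 11 haematopoietic markers was present in 28.8% of cells, led by Cd68 in 12.8% of cells, whereas Ptprc was read in 0.915% and the macrophage genes C1qa and Cd163 were at 0. The summed level of these markers had a median of 0 and a highest value of 9.98 reads per 10000. Without those cells Slc40a1 was read in 8.99%, Hmox1 in 56.1% and Ncoa4 in 34.3% of the cells that remained, each within its interval over all cells, while the mean natural log level of Tfrc was 0.0094 in place of 0.015 and that of Slc40a1 0.062 in place of 0.054. Markers of other stromal cells were read too: at least 1 of 5 fibroblast genes in 33.1% of cells, led by Dcn in 30.03%, 1 of 5 mural genes in 7.01% and 1 of 3 glial genes in 7.47%. The median of each of these sums was 0 and the highest cell reached 130.1, 134.2 and 100.6 reads per 10000. In the 58.99% of cells without any of them, Slc40a1 was read in 8.53%, Hmox1 in 57.1%, Ncoa4 in 33.6% and Tfrc in 4.65%. Of 6 blood endothelial genes, 3 were read in at least 50% of cells, led by Emcn in 96.2%, and Flt1 was lowest at 2.44%. Levels are given as the natural log of 1 plus reads per 10000 reads of the cell, or as reads per 10000 where stated. A gene counted as read in a cell at any value above 0, and intervals for such shares are exact 95% binomial intervals that cover counting error only.

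Among the 6 genes, the ferritin subunits had the highest levels per length and the receptor and the exporter the lowest. Fth1 and Ftl1 were read in nearly all cells, Hmox1 in most, Ncoa4 in a minority, and Slc40a1 and Tfrc in few. Of the 6 genes, 3 were read in at least 50% of cells, where 11.8% of all genes were, and 2 were read in under 10%, where 58.3% of all genes were. As the genes were picked by name, nothing is read from these shares. Per kilobase of exon, the mean level in reads per 10000 was 32.98 for Fth1, 4.25 for Ftl1, 1.18 for Hmox1, 0.0361 for Ncoa4, 0.0106 for Slc40a1 and 0.00407 for Tfrc.

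**Figure D1:**
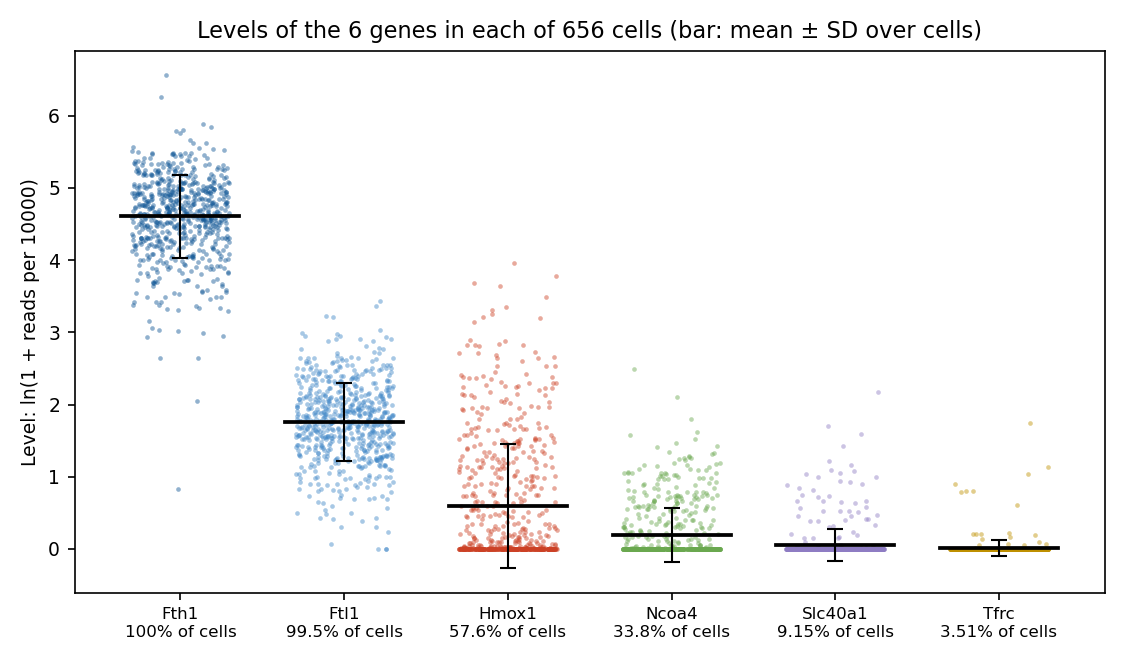
Levels of the 6 genes in every analysed cell, as the natural log of 1 plus reads per 10000 (vertical axis). Each point is 1 cell, wide bars are means and error bars are SDs over cells. Fth1 lies apart from the rest at a mean of 4.61, Ftl1 follows at 1.76, and most points of Slc40a1 and Tfrc lie at 0.

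Fth1, the heavy subunit with ferroxidase activity (chromosome 19, 9980598 to 9985098, plus strand), was read in every cell. Its level was 0.84 in the lowest cell, 4.66 at the median and 6.56 in the highest, with a mean of 4.61 ± 0.57 (SD over all cells). The middle 50% of cells lay between 4.30 and 4.98, and 90% lay between 3.58 and 5.38. By mean level, not divided by length, Fth1 ranked 1 of 23168 genes, and per kilobase of exon it ranked 8 of 22258 genes with an annotated length. It had the most reads of any gene in 30.03% of cells and was among the 10 highest genes in 88.1%. In all it took 5081001 reads, or 1.11% of all reads. The lowest cell held 10 Fth1 reads of 76488, and the highest held 8766 of 124300, so both cells were deeper than 20000 reads. Only 2 cells lay under 10 reads per 10000 and 7 lay over 300.

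Ftl1, the light subunit (chromosome 7, 45457944 to 45459884, minus strand), was read in all but 3 cells (99.5%). Its level ran from 0 to 3.44 with a median of 1.77 and a mean of 1.76 ± 0.54 (SD over all cells). To set cells at 1 depth, those holding 20000 reads or more (86.6%) were drawn down at random to exactly 20000, called thinning here, and 98.8% of them still had an Ftl1 read. Near-identical copies bear on this gene. Ftl1-ps1, Ftl1-ps2 and Ftl2-ps, called pseudogenes here by their names, held 39201 reads, 11.99% of the reads of Ftl1 and its copies together. Of these, Ftl1-ps1 is typed as protein-coding in GENCODE M21. Ftl2-ps alone was read in 89.2% of cells. How reads matching several copies were assigned is not stated in the methods, so the split between Ftl1 and its copies is uncertain. For Fth1 the listed pseudogene Fth-ps2 took 0.0062% of the reads of both.

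Both ferritin subunits together took a median of 1.10% of a cell's reads. The middle 50% of cells lay between 0.776% and 1.51%, and the range was 0.0379% to 7.33%. Heavy-subunit reads exceeded light-subunit reads in almost every cell. Divided by the length of all annotated exons (3469 bases for Fth1, 1340 for Ftl1), the median ratio of Fth1 to Ftl1 was 8.47, with 5% of cells under 2.02 and 5% over 29.1, and it was below 1 in 11 cells. The size of the ratio rests on the length used. The exon length of Fth1 includes introns kept in some annotated transcripts, and with the first-numbered transcript of each gene, which are of nearly the same length, the median was 22.8. Adding the pseudogene reads gave 7.37 on the exon scale.

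Tfrc, which takes up transferrin-bound iron (chromosome 16, 32608920 to 32632794, plus strand), was read in 23 cells (3.51%, interval 2.24 to 5.21%). In those cells its median level was 0.21, or 4 reads, and its highest was 1.75. After thinning, 1.41% of cells had a read. It was 1.22% in the 25% of cells with the fewest reads and 5.49% in the 25% with the most.

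Slc40a1, the iron exporter (chromosome 1, 45908068 to 45926523, minus strand), was read in 60 cells (9.15%, interval 7.05 to 11.6%) and in 7.57% of thinned cells. Its level where read had a median of 0.52 and a highest value of 2.17. No cell had a read of both Slc40a1 and Tfrc, and 87.3% of cells had neither. With shares this low, cells with both would have been few in any case.

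Hmox1, which opens the haem ring and releases iron (chromosome 8, 75093621 to 75100589, plus strand), was the most uneven of the well-read genes. It was read in 57.6% of cells (interval 53.7 to 61.4%) and in 39.6% of thinned cells. The level was 0 in the lowest cell, 0.04 at the median, 1.09 at the upper quartile and 3.96 in the highest. The 66 highest cells held 66.9% of the summed Hmox1 level, whereas the 66 highest for Fth1 held 21.1% and for Ftl1 24.9%. There were 33 cells (5.03%) over 10 reads per 10000, against a mean of 2.07.

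Ncoa4, the ferritinophagy receptor (chromosome 14, 32159865 to 32179855, plus strand), was read in 33.8% of cells (interval 30.2 to 37.6%). Its level had an upper quartile of 0.22 and a highest value of 2.49, with a mean of 0.20 ± 0.38 (SD over all cells). The share followed depth: 17.7% of the shallowest 25% of cells and 53.7% of the deepest 25% had a read. Thinned to equal depth, 23.1% did. Fth1 was read in 100% of cells in each of the same 4 depth classes, with mean levels between 4.53 and 4.65. The mean level of Ncoa4 lay between 0.16 and 0.24 over them.

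Order of the levels per kilobase did not change between the exon and transcript lengths tried. The spreads of Fth1 and Ftl1 over cells touch only at their edges, whereas the middle 50% of cells of Ncoa4 and Hmox1 both reached down to 0 and overlapped. Slc40a1 and Tfrc had 0 at the median and the upper quartile, and their intervals for the share of cells did not overlap. Cells of 1 pool are not replicates, so these spreads describe cells and not animals.

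Cell-to-cell spread, set against all genes of like mean level, also separated the genes. Over 5279 genes read in at least 30% of cells, Ftl1 was among the least variable for its level, ranking 5 from the bottom by variance beyond a smooth trend. Hmox1 ranked 100 from the top, or 1.89% of the way down. Changing the span of the trend or thinning the reads kept Ftl1 between 5 and 14 from the bottom and Hmox1 between 1.82% and 3.19% from the top. The place of Fth1 was not stable: it ranked 240 from the bottom, 8 from the bottom with the widest span, 58.95% of the way up with the narrowest, where its variance lay just above the trend, and 43.1% of the way up with thinned reads.

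Clusters of LECs were built from the recovered reads of these aged cells alone, following the steps of the study. The list of dissociation genes regressed out and the resolution were chosen here. They are named here by their leading gene. The Gm525 cluster (32.5% of cells, also led by Stab2 and Itih5) was Ptx3+ capillary-like, and the Ahsg cluster (26.5%, with Apoe, Bmp4 and Foxp2) was precollecting-like. The Gm525 cluster also had raised Plvap and Aqp1 of the blood endothelial list. In the Ahsg cluster, Gja4 and Clu of the downstream-valve list and Emcn and Vwf of the blood endothelial list were raised too. Lyve1, which the study used with Foxp2 to mark precollecting LECs, was raised in the Tppp3 cluster instead. The Tppp3 cluster (16.2%, with Fndc1, Reln and Ackr2) and the Anxa8 cluster (13.7%, with Ptn, Stc1 and Anxa3) were both Ptx3- capillary-like. They raised different genes of that list, and neither raised both Fndc1 and Ptn, the pair used by the study. The Tppp3 cluster also raised Lyve1 and Cavin2 of the precollecting list and Piezo2 of the Ptx3+ capillary list. The Anxa8 cluster also raised Clu, Vwf and Cd34 of other lists. These names are therefore approximate. The Fxyd2 cluster (11.1%, with Gdf15 and raised Cldn11, Esam and Gata2) stayed unnamed. Cldn11, Esam and Gata2 were not among its 10 leading genes, which held Neo1 of another class. The study also named upstream-valve and downstream-valve LECs, and no cluster here took those names. Hmox1 and Tfrc were among the variable genes that built the clusters and the other 4 genes were not, and values between clusters are given without a test.

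**Figure D2:**
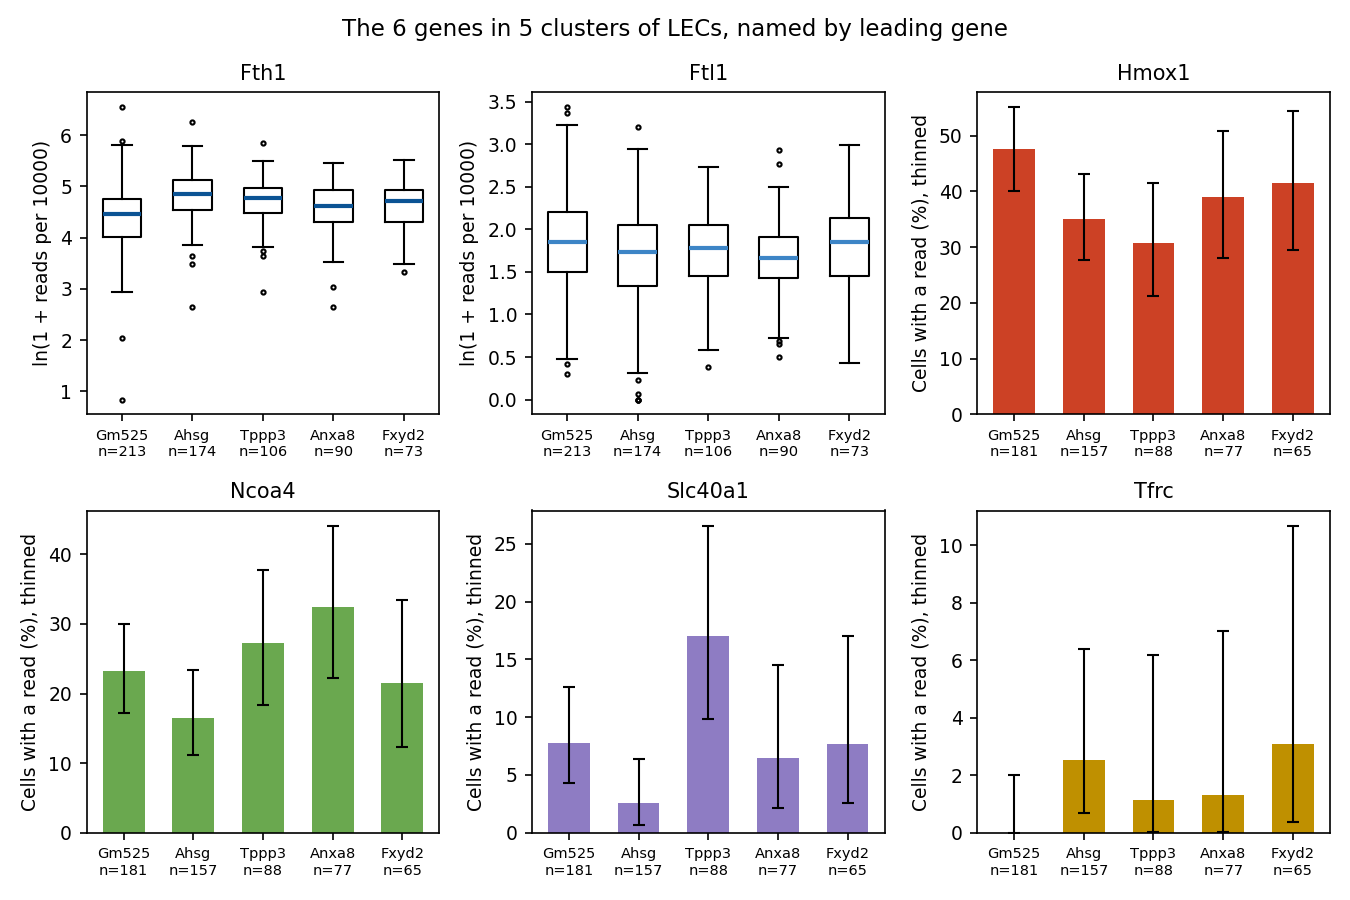
The 6 genes in 5 clusters named by leading gene, with the number of cells under each. For Fth1 and Ftl1, boxes show the median and quartiles of the natural log level, whiskers reach 1.5 times the box, and points lie beyond. For the others, bars show the share of thinned cells with a read and error bars the exact 95% interval. Slc40a1 stands at 17.05% in the Tppp3 cluster and at 2.55% in the Ahsg cluster.

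Fth1 differed little between clusters in reads per 10000. Its mean was 98.7 in the Gm525 cluster, 105.9 in the Anxa8 cluster, 112.6 in the Fxyd2 cluster, 121.9 in the Tppp3 cluster and 134.3 in the Ahsg cluster. The spans of cells overlapped broadly. Ftl1 had a different order, highest in the Gm525 cluster at 6.42 and lowest in the Anxa8 cluster at 4.94. Thus in this clustering, the cluster lowest in the heavy subunit was highest in the light one. That order was not checked under other clusterings.

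The iron exporter showed a more uneven pattern. Slc40a1 was read in 21.7% of cells of the Tppp3 cluster (interval 14.3 to 30.8%), 9.59% of the Fxyd2 cluster, 8.45% of the Gm525 cluster, 6.67% of the Anxa8 cluster and 3.45% of the Ahsg cluster (interval 1.28 to 7.35%). Thinned reads gave 17.05% for Tppp3 and between 2.55% and 7.73% for the others. The cluster that held most of the Tppp3 cells was highest in Slc40a1 under all 7 other clusterings tried, from 20.2% to 25.8%, with the next cluster between 8.59% and 10.6%. Here 17.9% of Tppp3 cells had a read of a haematopoietic marker, against 20.5% to 32.9% in the other clusters. The median depth was 129560 reads in the Tppp3 cluster, 124300 in the Gm525 cluster and 81200 in the Anxa8 cluster. It was 185731 in the Fxyd2 cluster and 186080 in the Ahsg cluster. The part of depth or of other cell types in these Slc40a1 shares was not tested.

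Hmox1 was highest in the Gm525 cluster at a mean of 3.25 reads per 10000, against 1.37 to 1.72 in the other 4. The cluster that held most of the Gm525 cells stayed highest under the same 7 clusterings. One of them left out all listed iron genes and gave 3.20 against a next value of 1.71. The margin was narrowest at resolution 1.5, at 4.52 against 4.04. The dissociation score was the mean of listed dissociation genes, such as immediate-early and heat-shock genes, less that of control genes of like level. Its lowest cluster median, 0.41, was in the Gm525 cluster. The part of dissociation in the Hmox1 level was not tested. Ncoa4 lay between 0.270 reads per 10000 in the Ahsg cluster and 0.392 in the Gm525 cluster. For Tfrc, between 2.35% and 4.60% of cells in each cluster had a read, with intervals that all overlapped.

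The spread of the 6 genes over clusters was set beside that of all genes. The mean of the highest cluster was at least 1.5 times that of the lowest for Hmox1 (2.28-fold) and Slc40a1 (2.24-fold), with 0.1 reads per 10000 added to both. Among genes read in at least 10% of cells, 60.7% reached this fold. Of the 4 members above that detection limit, Hmox1 alone did. The median fold was 1.36 over the 6 genes, 1.34 over those 4 members and 1.59 over all 9666 genes above the limit. Among the 610 of these with a mean of at least 1 natural log unit, it was 1.39. Fth1 reached 1.36 and Ftl1 1.29, near that last value.

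Wider lists of iron and haem genes place these genes in their pathways. Of 83 genes listed, 78 were in the table. Among those, 13 were read in at least 50% of cells, 44 in 10 to 50% and 21 in under 10%, with a median share of 28.4% against 5.03% over all genes. All genes take in 2187 with no read in any cell, and the lists hold the pseudogene Ftl2-ps. As the lists were chosen by name, nothing is read from this difference. In uptake, 13 of 19 genes were read in under 10% of cells, as were 58.3% of all genes. The second transferrin receptor Tfr2 and the haemoglobin-haptoglobin receptor Cd163 had no read in any cell, which for 3 cells as the floor limits the share of cells with a read to 0.457% and sets no limit on cells that carry the message unread. The best-read uptake genes were Exoc6, of the vesicle-tethering complex, in 49.7%, transferrin itself (Trf) in 47.9%, and the non-transferrin iron importer Slc39a14 in 41.5%. Steap4, a metalloreductase, reached 37.9% in the Ahsg cluster and at most 19.7% elsewhere.

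**Figure D3:**
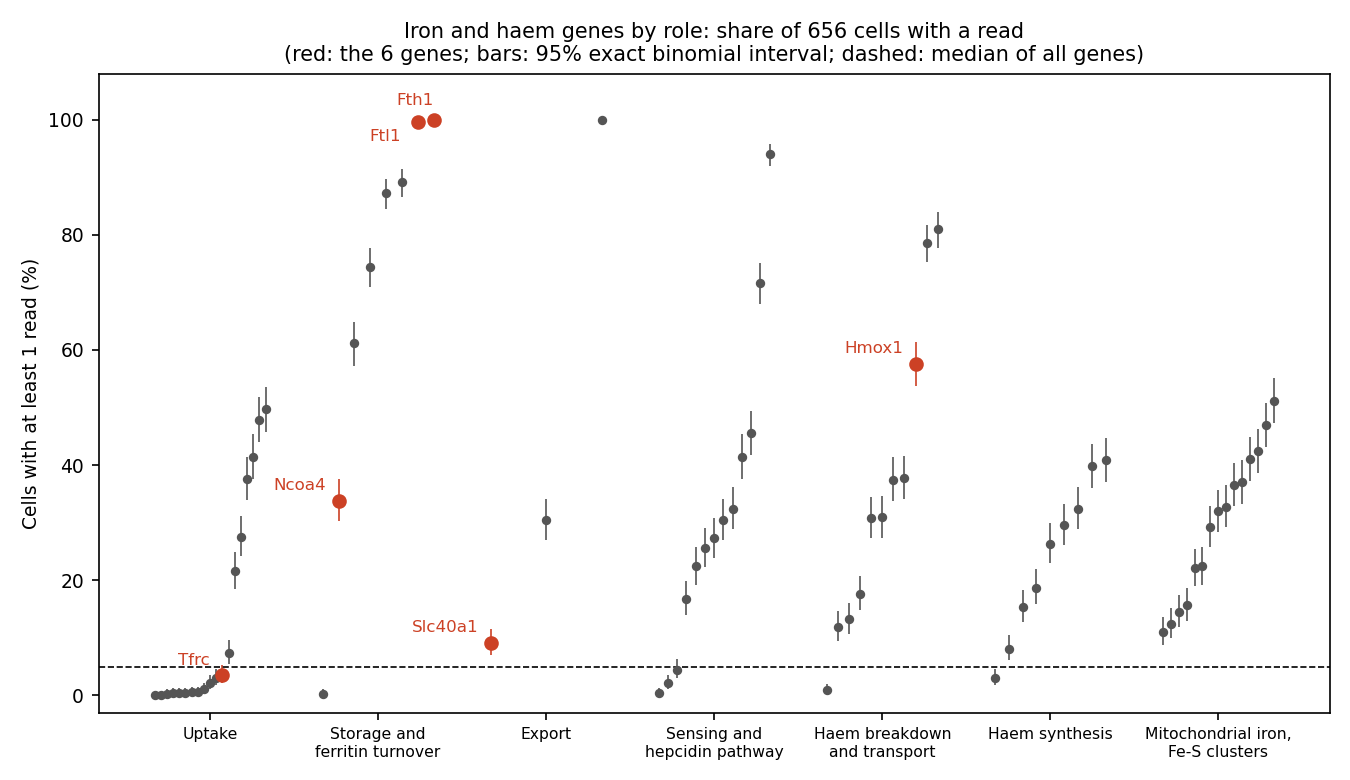
Share of the analysed cells with at least 1 read (vertical axis, percent) for 78 iron and haem genes grouped by role, each point 1 gene with its exact 95% interval. Red points are the 6 genes described here and the dashed line is the median of all genes, 5.03%. Fth1, Ftl1 and the export gene Cp reach the top of the scale, and most uptake genes, Tfrc among them, lie near or under the line.

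Storage and chaperone genes were read widely: Pcbp2 in 87.2% and Pcbp1 in 74.4% of cells, both iron chaperones that deliver iron to ferritin, and Herc2, the ligase that turns Ncoa4 over, in 61.1%. The mitochondrial ferritin Ftmt was read in 0.305%. In export, the ferroxidase Cp (ceruloplasmin), which oxidises iron leaving through ferroportin, was read in every cell. Its level was 2.62 on average, and it was highest in the Ahsg cluster at 19.2 reads per 10000, against 12.95 to 14.6 elsewhere. The cluster with the highest Cp was therefore the one with the lowest Slc40a1. Its relative Heph was read in 30.5%.

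Sensing genes were mostly in the middle range. The iron regulatory proteins Aco1 and Ireb2 were read in 30.5% and 22.4% of cells, and Fbxl5, the iron-sensing ligase that removes Ireb2, in 45.6%. Epas1, a hypoxia-inducible factor, reached 94.1% and the BMP receptor Bmpr2 71.6%. The BMP ligand Bmp6, which in liver endothelium drives hepcidin, was read in 25.6%, and hepcidin (Hamp) in 2.13%. Bmp6 was most frequent in the Gm525 cluster at 35.7% and least frequent in the Fxyd2 cluster at 12.3%.

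Among haem genes, the exporter Abcg2 was read in 78.7% and the haem chaperone Pgrmc1 in 80.9%. The constitutive haem oxygenase Hmox2 was read in 30.8%, less often than Hmox1, and the biliverdin reductases Blvra and Blvrb, which act after haem oxygenase, in 30.9% and 37.5%. Of 9 haem synthesis genes none reached 50% of cells, as 11.8% of all genes did, the highest being Urod at 40.9% and the lowest the erythroid enzyme Alas2 at 3.05%. Of 15 genes for mitochondrial iron and iron-sulfur clusters, the scaffold gene Iscu was highest at 51.2% and Glrx5 lowest at 10.98%.

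Among the 3 genes read in most cells, likeness across cells was weak. Over all analysed cells, which share 1 pool and differ in depth, Spearman's rho was 0.145 for Fth1 with Ftl1, the subunits of 1 protein shell, 0.113 for Ftl1 with Hmox1 and -0.034 for Fth1 with Hmox1. Over all 15 pairs the median was 0.0050, but 12 of them hold Tfrc, Slc40a1 or Ncoa4, whose reads are sparse. Over all pairs of a member with another gene read in at least 30% of cells the median was 0.019.

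**Figure D4:**
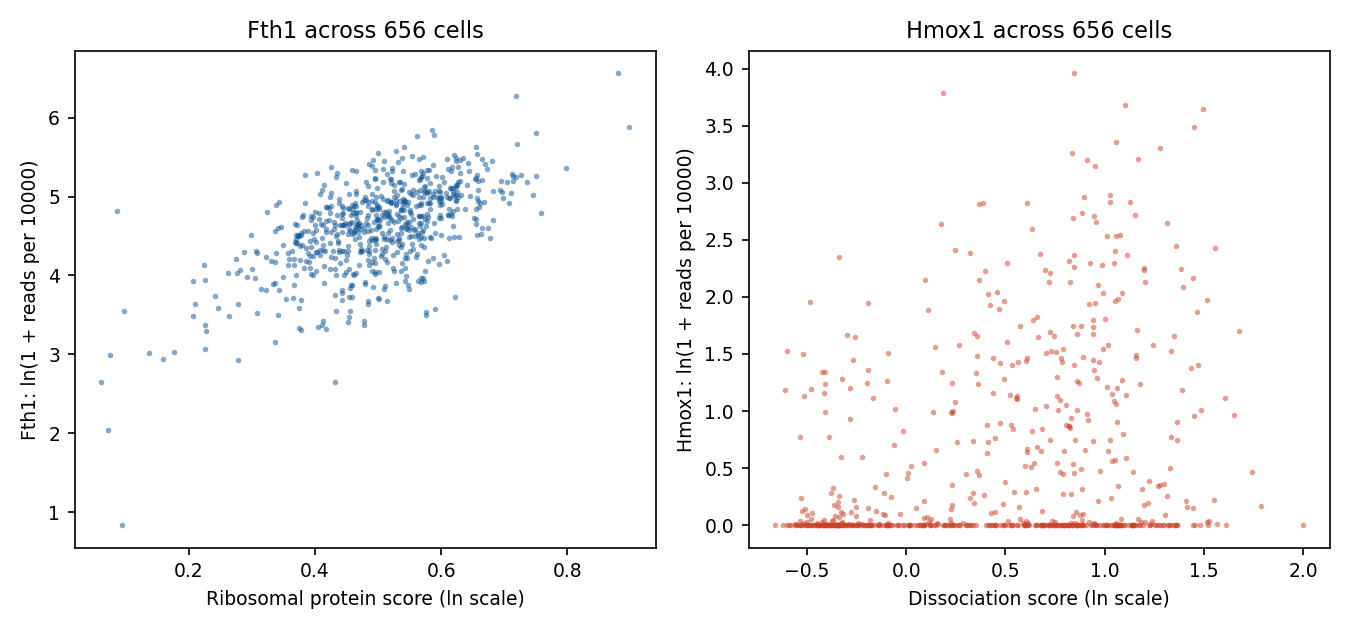
Fth1 against a ribosomal score of genes named Rpl or Rps (left) and Hmox1 against a dissociation score (right), each point 1 cell, all axes on natural log scales. Fth1 climbs with the ribosomal score (rho 0.556), while Hmox1 is scattered along the dissociation score with many cells at 0 (rho 0.247).

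The genes most like Fth1 were ribosomal. Among 5278 genes ranked, those near the top included Rps4x (rho 0.469), Eef1a1 (0.466), Rpl13 (0.460) and Rps14 (0.455), all parts of the ribosome or, for Eef1a1, an elongation factor. Of the 50 most alike, 41 were Rpl or Rps genes, which made up 2.33% of the genes ranked. These were taken by the start of the symbol, so pseudogenes such as Rpl9-ps4 are among them. With a score of all genes so named, rho was 0.556, and it lay between 0.550 and 0.562 with cluster means or depth taken out. Ftl1 did not share this, with 0.096.

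Ftl1 was most like its own copy Ftl2-ps (rho 0.377), with which it may share reads, then the ubiquitin gene Ubb (0.302), the stress phosphatase subunit Ppp1r15a (0.256), Sertad1 (0.248) and the copy Ftl1-ps1 (0.247). Hmox1 was most like Socs3 (0.285), Csrnp1 (0.284), the mitochondrial carrier Slc25a25 (0.279), the histone gene H3f3b (0.272) and Sbno2 (0.262). Of the 50 genes most like Hmox1, 11 belonged to a list of 26 dissociation-responsive genes, 25 of which were among the 5278 ranked. With the score of that list rho was 0.247 for Hmox1, 0.197 for Ftl1 and 0.069 for Fth1. The part of tissue digestion in these levels was not tested.

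For the 3 sparser genes no other gene reached a rho over 0.205. The nearest were Lyve1, Plod1, Tril, B130024G19Rik and Ucp2 for Slc40a1, Gm15710, Rpl9-ps4, Pmpcb, Edc4 and Slc35a1 for Ncoa4, and Cdk5rap3, Elp5, Nfkb1, Hbs1l and Rbm17 for Tfrc. In counts this sparse such values are not a finding.

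The labels number the cells and do not name plates. Over 12 blocks of 96 numbers, the mean level of Fth1 ran from 4.30 to 4.79 and that of Ftl1 from 1.59 to 2.001. Hmox1 was read in 41.3% to 80% of a block's cells and Slc40a1 in 5.0% to 16.7%. Some blocks held few cells, and what a block stands for was not tested.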

How the data were processed

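According to the labels and methods, the authors aligned Smart-Seq3 reads to mm10 with STAR, counted them per gene with featureCounts, kept cells with at least 2000 genes and at most 10% mitochondrial reads, and normalised in Seurat 4.1.0. Of 1152 labelled cells, 656 were analysed here and 496 not. The deposited values were taken as natural logs, ln(1 + reads per 10000). The methods state log2, but the sums reached 10000 in each cell only with base e. On that scale 100% of values were whole reads within 0.01, which gave each cell's depth. Reads were not collapsed to molecules.

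Shares have exact Clopper-Pearson 95% intervals (scipy 1.17.1), and thinning to 20000 reads used 568 cells and left out 88. Clusters (213, 174, 106, 90 and 73 cells, in the order given) followed the steps of the study on the aged cells alone. They used Seurat 5.3.0 (R 4.3.3), 2000 variable genes, 15 components and the lowest resolution with 5 clusters. Names needed 3 raised markers, more than any other class had. They also needed at least 1 marker among the 10 leading genes, and no fewer there than any other class. Exon lengths came from GENCODE M21, matched for 22258 symbols. The scripts were tested on simulated data. The 6 genes, the wider lists and the marker lists were chosen with earlier results of these data known. Named genes were the 6, listed iron and haem genes in at least 50% of cells with the lowest and those at 0, the 5 genes of highest rho for each, and ferritin pseudogenes. Of these, 1 gene is not reported here. Other listed genes named in the text, such as Trf, Slc39a14, Steap4, Bmp6 and Hamp, were chosen after their values were seen. Cells of 1 pool are not replicates, so no test was run.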

Additional observations from a re-analysis of the deposited data

How the results depend on the processing

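The median share of cells with one of the 6 genes was 45.7%. It was 16.5% when only natural log values above 1 counted, 31.3% in thinned cells, 50.3% when the 25% of cells with fewest detected genes were dropped and 56.01% in cells with at least 4000 genes. The median of the mean levels, 0.40, was 0.71 when the mean was taken before the log. The ratio of Fth1 to Ftl1, 8.47 per exon length, was 21.9 without division by length, 14.2 with the longest coding transcript, 22.8 with the first-numbered transcript, 7.37 with pseudogene reads added and 6.82 from reads summed over cells. The median fold between clusters, 1.36, was 1.68 at resolution 0.8, 2.66 at resolution 1.5, 1.60 with 10 components, 1.53 with 1000 and 1.95 with 3000 variable genes, and 1.54 without regression. The variance of Fth1 beyond the trend, -0.11, was 0.0095 with a span of 0.1. Hmox1 reached a fold of 12.6 between clusters with 3000 variable genes, where Fth1 reached 2.18. The causes were not tested. The ferritin share of reads stayed between 1.09% and 1.13%, and the median rho of the pairs between -0.020 and 0.025. The first-numbered transcript, the blocks, the cells without stromal markers and the alternatives for the scores, the variance and the Slc40a1 share were added after seeing the data. Depth limits Tfrc, Slc40a1 and Ncoa4: a cell without a read may still carry the message. No paired analysis was possible because there was 1 group.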

Other observations

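Genes of neighbouring stress pathways were read in the same cells. Of 18 targets and regulators of Nrf2 and Bach1, the factors that switch Hmox1 on and off, 8 were read in at least 50% of cells, where 11.8% of all genes were, led by the autophagy receptor Sqstm1 (p62) in 99.1%. The quinone reductase Nqo1 was read in 79.5% of the Fxyd2 cluster (interval 68.4 to 88.02%) and in 32.9% of the Gm525 cluster (26.6 to 39.6%), and thinned reads gave 70.8% and 25.97%. Sqstm1 was highest in the Fxyd2 cluster too, at 19.5 reads per 10000 against 8.03 to 11.2 in the other clusters. Hmox1, a target of the same factors, was highest in the Gm525 cluster instead.

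Ferroptosis is a form of cell death driven by iron and lipid peroxides. Of 11 genes listed for it, 2 were read in at least 50% of cells, where 11.8% of all genes were. In under 10% of cells, 6 were read, where 58.3% of all genes were. Gpx4, which removes those peroxides, was highest at 96.95% of cells. The cystine importer Slc7a11 was read in 0.610%, whereas its partner Slc3a2 was read in 94.4%. Reads of 4 haemoglobin genes were present in 13 cells (1.98%).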
